A study of Homo sapiens with 6 samples.

Results

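MHC class II presentation was followed through 10 genes, taken by symbol from the 17513 genes deposited. They encode the chains of the 3 classical class II molecules (HLA-DRA and HLA-DRB1, HLA-DPA1 and HLA-DPB1, HLA-DQA1 and HLA-DQB1), the peptide editor HLA-DM (HLA-DMA and HLA-DMB), the invariant chain CD74 and the transactivator CIITA. Polyadenylated RNA of 6 libraries was sequenced. The series text describes macrophages made from THP1, a human monocytic leukemia line, and kept for 48 h in medium of KYSE150, a human esophageal squamous carcinoma line. In 3 libraries the KYSE150 cells carried the hairpin shSPP1#2, aimed at SPP1 (osteopontin), and in 3 the reference hairpin shNC. All libraries thus shared the macrophage line and exposure to tumor cell medium, and 1 SPP1 hairpin was used. No library without such medium, or with added interferon, was analysed here. The labels do not state whether the replicates were independent cultures, and p-values therefore cover only the spread among these samples, part or all of which may be technical.

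Class II molecules carry peptides from endocytosed protein to the surface, where CD4 T cells read them. Each is a pair of an alpha and a beta chain. The chains assemble in the endoplasmic reticulum on the invariant chain, which blocks the groove and steers the complex to late endosomes. There cathepsins cut the invariant chain to a short remnant, and HLA-DM exchanges that remnant for peptide. CIITA binds no DNA itself and is recruited by RFX, CREB and NF-Y proteins bound to the X and Y boxes of class II promoters. In macrophages, interferon gamma is the classical inducer of CIITA.

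The sample labels name KYSE150, while the libraries held RNA of most macrophage markers listed. Of 18 macrophage markers, 16 reached 1 FPKM (fragments per length of transcript and per library size) in every library. LAPTM5 measured 725 to 823 FPKM and FCER1G 346 to 457 FPKM. MRC1 (0.01 to 0.03 FPKM) and CYBB (0.57 to 0.93 FPKM) stayed below 1 FPKM. CD163 (1.33 to 1.69 FPKM) and MARCO (1.81 to 2.52 FPKM) were little above it. None of 15 deposited squamous epithelial markers (16 listed) reached 1 FPKM in any library. KRT16 was the most abundant at 0.55 to 0.93 FPKM, and TP63 measured 0.35 to 0.61 FPKM. Other antigen-presenting cells were looked for as well. Of 13 deposited dendritic cell markers 6 reached 1 FPKM in every library, led by ZBTB46 (4.34 to 4.64 FPKM) and BATF3 (2.85 to 4.51 FPKM), while CLEC9A and CLEC10A stayed at or below 0.06 FPKM. Of 9 B cell markers 1 did, FCRLA at 122 to 135 FPKM, with CD79A at 0.47 to 0.89 FPKM and MS4A1 at 0 to 0.01 FPKM. Of 8 T and NK cell markers 4 did, led by CD4 (22.6 to 25.9 FPKM), which macrophages also make, and GZMB (8.19 to 12.2 FPKM). In none of these lists was a gene called between the media, but none of the 13555 genes tested was either. The lack of calls thus does not show even levels. Of 17 tested macrophage markers 6 had a positive and 11 a negative log2 fold change (median -0.036). Of 7 dendritic markers 5 and 2 did (0.073), and of 5 B cell markers 3 and 2 (0.11). Of 8 T and NK cell markers 2 and 6 did (-0.055), and of 3 squamous 2 and 1 (0.13). The groups did not overlap for 11.1% of all tested genes. In the lists these were 4 macrophage, 2 dendritic, 1 B cell, 1 T and NK cell and 0 squamous markers. Among them were FCER1G (-0.18), BATF3 (0.44) and GZMB (-0.25), with unadjusted edgeR p of 0.0077, 0.019 and 0.042 (adjusted p at least 0.575). Each library held between 18113591 and 20626346 estimated counts. On the first principal component (34% of the variance) the libraries numbered 2 stood apart, shNC replicate 2 at 10.1 and shSPP1#2 replicate 2 at 6.62, against -7.58 to -0.021 for the others.

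Promoter sequence was available for 8 of the 10 genes in the RefSeq windows of GRCh38.p14 (250 bases before to 50 after the start); HLA-DRA and CIITA had no entry. The stretches from 150 to 16 bases before the start are shown for 5 genes, because they are known targets of CIITA that differed widely in level, as given below. CD74, HLA-DRB1 and HLA-DMA were the abundant genes, HLA-DMB and HLA-DQB1 the scarce ones. The starts are those of RefSeq and can differ from the gene positions given below, which are from GENCODE v29. For HLA-DMA and HLA-DQB1 the stretch shown lies wholly inside the GENCODE gene span. Capitals mark matches on either strand to 3 short patterns. The Y box core was searched as TGATTGG. The general NF-Y motif was searched as CCAAT, which every Y box core also holds on its other strand. The X box pattern was searched as GNAAC followed by any 3 bases and a closing dinucleotide of thymine and guanine.
CD74, chr5:150412926-150413060, minus strand: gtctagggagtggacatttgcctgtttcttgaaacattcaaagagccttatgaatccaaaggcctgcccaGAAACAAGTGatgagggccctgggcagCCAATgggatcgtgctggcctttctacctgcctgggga
HLA-DRB1, chr6:32589864-32589998, minus strand: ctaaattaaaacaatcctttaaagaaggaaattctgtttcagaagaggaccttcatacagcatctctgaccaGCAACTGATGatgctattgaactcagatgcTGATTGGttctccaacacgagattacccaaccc
HLA-DMA, chr6:32953113-32953247, minus strand: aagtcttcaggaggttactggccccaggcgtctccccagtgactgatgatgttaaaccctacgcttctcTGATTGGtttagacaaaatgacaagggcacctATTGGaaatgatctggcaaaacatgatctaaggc
HLA-DMB, chr6:32941044-32941178, minus strand: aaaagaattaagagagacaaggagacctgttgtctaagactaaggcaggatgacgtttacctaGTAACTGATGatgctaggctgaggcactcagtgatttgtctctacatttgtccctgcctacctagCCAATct
HLA-DQB1, chr6:32666673-32666807, minus strand: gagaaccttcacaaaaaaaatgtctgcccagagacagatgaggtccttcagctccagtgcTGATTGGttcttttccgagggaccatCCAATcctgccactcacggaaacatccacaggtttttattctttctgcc

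The X box pattern began 80 bases before the start in CD74, 78 in HLA-DRB1 and 87 in HLA-DMB. The Y box core began 48 bases before the start in HLA-DRB1, 81 in HLA-DMA and 90 in HLA-DQB1. Of all 35116 promoter windows, 10.8% held the X box pattern, 6.95% the Y box core and 34.6% a CCAAT. Among these 5 genes HLA-DRB1 alone held the X box pattern together with the Y box core. Of the scarce genes not printed, HLA-DQA1 and HLA-DPB1 held a CCAAT but neither box pattern in their windows, and HLA-DPA1 held none of the 3 patterns in either of its windows. A match is a description of letters, not a site.

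The class II genes split widely by level, with 3 above 1 FPKM in every library and 7 below 1 FPKM in every library. The order was CD74, HLA-DRB1 and HLA-DMA, and the ranges of these 3 over the 6 libraries did not overlap with one another or with those below. HLA-DMB, HLA-DQB1, CIITA, HLA-DQA1, HLA-DRA, HLA-DPA1 and HLA-DPB1 followed by mean level, and each overlapped with its neighbour in that order. In bulk RNA, fewer cells making a transcript and less of it per cell cannot be told apart.

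**Figure D1:**
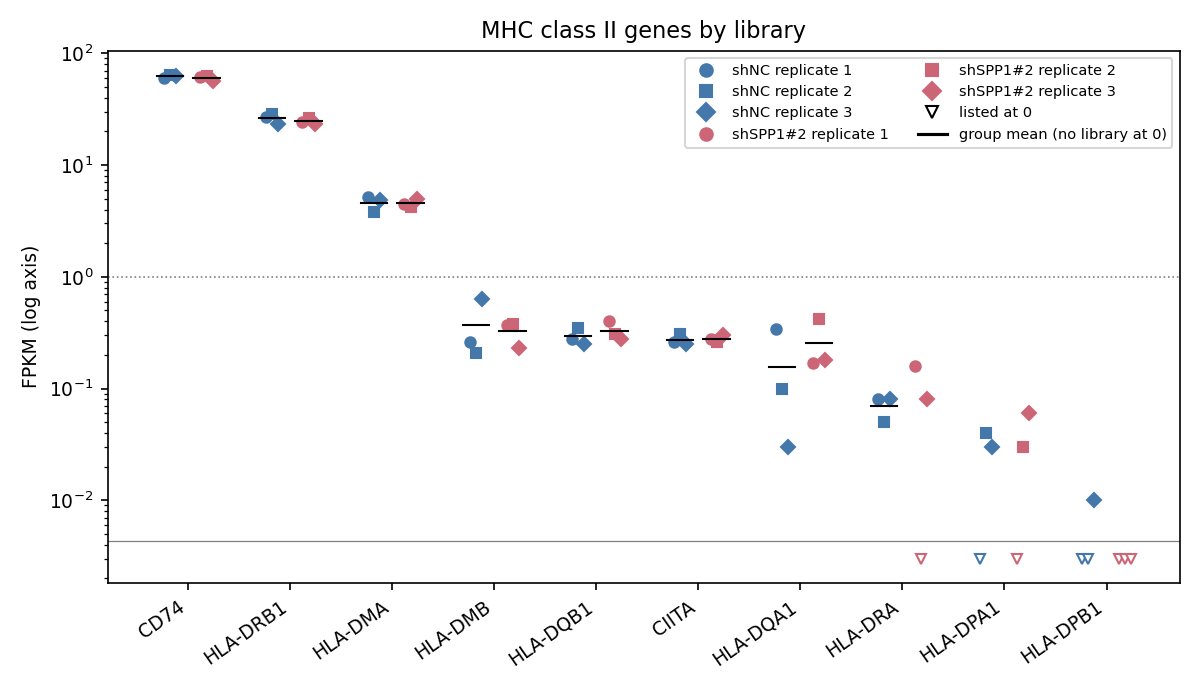
FPKM (log axis) of the 10 class II genes in each of 6 libraries, with shNC in blue, shSPP1#2 in red and open triangles for libraries where a gene was listed at 0; black bars are group means, drawn where no library of the group is at 0. CD74, HLA-DRB1 and HLA-DMA lie above 1 FPKM (dotted line) in all libraries, the other 7 genes below it, and the groups overlap for every gene.

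The invariant chain CD74 was the most abundant, at 60.05, 64.11 and 62.98 FPKM with shNC medium (replicates in numerical order, here and below). With shSPP1#2 medium it measured 62.03, 62.43 and 57.02 FPKM. The groups overlapped, and the lowest value was that of shSPP1#2 replicate 3. Its mean was 62.4 ± 2.10 FPKM with shNC and 60.5 ± 3.01 FPKM with shSPP1#2 medium (SD, n = 3 each). CD74 stood at the 93.3rd percentile of the deposited genes by mean FPKM. Besides its role as a class II chaperone, CD74 is the surface receptor of the cytokine MIF. It lies on the minus strand of chromosome 5, 150401637 to 150412929 (GENCODE v29, GRCh38, as for the other positions here).

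Of the classical chains only HLA-DRB1, the main DR beta chain, was abundant. It measured 26.76, 28.52 and 23.38 FPKM in the shNC libraries and 24.16, 26.65 and 23.28 FPKM in the shSPP1#2 libraries. In both groups replicate 3 was lowest, and the groups overlapped. The means were 26.2 ± 2.61 and 24.7 ± 1.75 FPKM (SD, n = 3 each). HLA-DRB1 lies on the minus strand of chromosome 6, 32578769 to 32589848.

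HLA-DRA encodes the single alpha chain that DR beta chains pair with, and it was nearly undetected. It was listed at 0.08, 0.05 and 0.08 FPKM in the shNC libraries and at 0.16, 0 and 0.08 FPKM in the shSPP1#2 libraries. These values rest on 2, 1, 2, 4, 0 and 2 counts. The 11 counts over all 6 libraries have an exact Poisson 95% interval of 5.49 to 19.7, which covers counting error only. The gene is on chromosome 6, plus strand, 32439842 to 32445046.

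The DR chains were therefore unequal in every library. The ratio of HLA-DRB1 to HLA-DRA in FPKM was 334.5, 570.4 and 292 in the shNC libraries and 151 and 291 in shSPP1#2 replicates 1 and 3. In shSPP1#2 replicate 2 HLA-DRA was listed at 0. Over all libraries the ratio of counts was 325, with an exact 95% interval of 181 to 651 for counting error. Of the 1180 windows of 50 bases in the HLA-DRB1 transcript, 8.64% also occur in HLA-DRB5, so the authors' counting could move reads between these copies. HLA-DRB5, another DR beta gene, measured 3 to 3.69 FPKM. Class II chains are highly polymorphic, and the sources used here do not state which alleles the authors' reference held.

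The DQ pair was scarce. The beta chain HLA-DQB1 measured 0.28, 0.35 and 0.25 FPKM in the shNC libraries and 0.40, 0.31 and 0.28 FPKM in the shSPP1#2 libraries, on 8 to 13 counts each. Its alpha partner HLA-DQA1 measured 0.34, 0.10 and 0.03 FPKM against 0.17, 0.42 and 0.18 FPKM. Rounded to whole counts, HLA-DQA1 summed to 7 in the shNC group and 12 in the shSPP1#2 group. The ratio of these sums per total count was 1.66, with an exact 95% interval of 0.603 to 4.98 for counting error. Both groups overlapped for either gene. Of HLA-DQB1 exonic bases 9.93% are shared with an antisense gene, and without strand these reads cannot be told apart.

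The DP pair was at the limit of detection. HLA-DPA1 summed to 2 counts in the shNC group and 3 in the shSPP1#2 group, and it was listed at 0 in 1 library of each. HLA-DPB1 had 1 count in shNC replicate 3 and was listed at 0 in the other 5 libraries. The shSPP1#2 libraries together held 61153240 estimated counts, and the count of 0 for HLA-DPB1 has an exact two-sided 95% upper limit of 3.69 counts. No difference in the DP genes was detectable at this depth.

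The chains of HLA-DM were also unequal. HLA-DMA measured 5.13, 3.80 and 4.91 FPKM in the shNC libraries and 4.50, 4.25 and 4.97 FPKM in the shSPP1#2 libraries. Its lowest value was in shNC replicate 2, the library with the highest HLA-DRB1 and CD74. HLA-DMB measured 0.26, 0.21 and 0.63 FPKM against 0.37, 0.38 and 0.23 FPKM. HLA-DMA exceeded HLA-DMB by 7.79 to 21.6 times in the single libraries. Another protein-coding model on the same strand shares 31.4% of the exonic bases of HLA-DMB and 15.5% of those of HLA-DMA, which makes the division of their reads uncertain. The genes lie on the minus strand of chromosome 6, HLA-DMB at 32934629 to 32941070 and HLA-DMA at 32948613 to 32969094.

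CIITA itself was low, and its spread across libraries was no larger than that from counting alone. It measured 0.26, 0.31 and 0.25 FPKM in the shNC libraries and 0.28, 0.26 and 0.30 FPKM in the shSPP1#2 libraries, on 68.5 to 83.6 estimated counts. Its coefficient of variation in CPM over the 6 libraries was 10%, against 11.4% from counting alone at its mean count. By comparison CD74 varied by 4.99% (2.37% from counting) and HLA-DRB1 by 9.25% (4.10% from counting), over the libraries of both media. The gene is on chromosome 16, plus strand, 10866222 to 10943021.

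The low FPKM of CIITA rests partly on its length. Counts divided by FPKM and by the library total gave an implied length of 13868 bases for CIITA, against 1441 for CD74 and 1169 for HLA-DRB1. The longest annotated CIITA transcript has 16059 bases and the next 4657. On a length of 4657 bases the level of CIITA would be 2.98 times higher, and every ratio to CIITA below would be divided by that number in all libraries alike. DEXI, a gene on the opposite strand at 13.2 to 14.6 FPKM, covers 5.15% of the exonic bases of CIITA. Another gene model on the same strand, AC133065.3, shares 14.8% of them, which makes the division of reads there uncertain.

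Relative to CIITA in the same library, CD74 stood at 231, 207 and 252 times its FPKM in the shNC libraries and at 222, 240.1 and 190.1 times in the shSPP1#2 libraries. HLA-DRB1 stood at 103, 92.0 and 93.5 times against 86.3, 102.5 and 77.6 times. HLA-DMA stood at 19.7, 12.3 and 19.6 times against 16.1, 16.3 and 16.6 times. For each of the 3 the groups overlapped, and shSPP1#2 replicate 3 gave the lowest ratio of CD74 and of HLA-DRB1. FPKM values carry 2 decimals, and this rounding alone is worth up to 2% of the lowest CIITA value.

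HLA-DQB1 lay close to CIITA, at 1.08, 1.13 and 1 times against 1.43, 1.19 and 0.933 times. HLA-DMB ran from 0.677 to 2.52 times and HLA-DQA1 from 0.12 to 1.62 times. The remaining chains stayed below CIITA in every library, with HLA-DRA at 0 to 0.571 times, HLA-DPA1 at 0 to 0.20 times and HLA-DPB1 at 0 to 0.04 times.

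**Figure D2:**
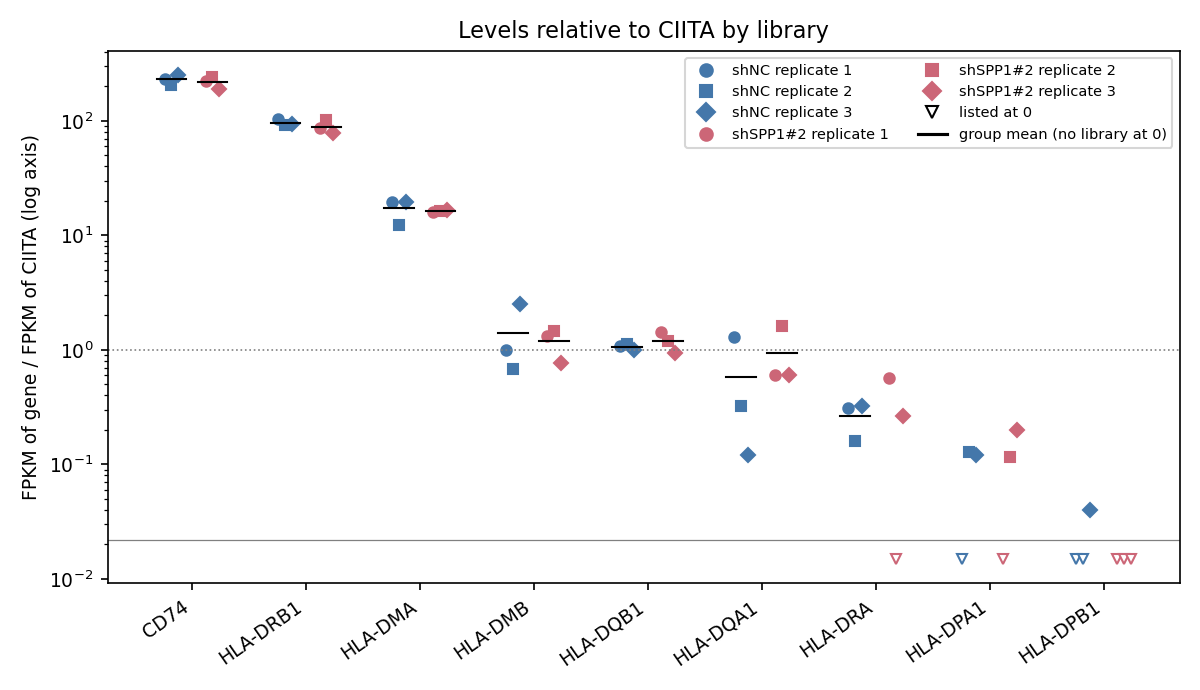
FPKM of each class II gene divided by the FPKM of CIITA in the same library (log axis), with shNC in blue, shSPP1#2 in red and open triangles where the gene was listed at 0; black bars are group means, drawn where no library of the group is at 0. CD74, HLA-DRB1 and HLA-DMA lie above the dotted line at 1 in all 6 libraries, HLA-DRA, HLA-DPA1 and HLA-DPB1 below it.

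Relative to CIITA, the values with shSPP1#2 and shNC medium overlapped for each of the 6 genes that were above 0 in all libraries. The comparison describes class II levels per unit of CIITA, with medium of KYSE150 cells carrying the SPP1 hairpin against the reference hairpin. Dividing by CIITA does not hold its level fixed. The 6 ratios share CIITA as denominator and carry its counting error, so their differences are not independent. These 6 genes were tested by a two-sided exact permutation test of 3 against 3 libraries. That test cannot give a p below 0.1, so a p above 0.05 here is no evidence of equal levels. The log2 ratio differed by -0.12 for HLA-DRB1 (exact permutation p = 0.4, adjusted p = 0.9 over 6 genes), from 6.59 ± 0.087 in shNC to 6.46 ± 0.20 in shSPP1#2 (SD, n = 3). For CD74 it differed by -0.084 (exact permutation p = 0.6, adjusted p = 0.9) and for HLA-DMA by -0.042 (exact permutation p = 1, adjusted p = 1). HLA-DQB1 differed by 0.13, HLA-DMB by -0.068 and HLA-DQA1 by 1.18, with exact permutation p of 0.6, 1 and 0.4. The HLA-DQA1 difference rests on 19.95 estimated counts in all, and its SD was 1.73 in shNC and 0.82 in shSPP1#2. It was 0.12 on log2(FPKM + 1) and 0.57 on TMM-scaled log2 CPM, and leaving out single libraries gave 0.37 at the lowest (shNC replicate 3 omitted) and 2.09 at the highest (shNC replicate 1 omitted). The median over the 6 genes was -0.055, with 2 higher and 4 lower, and this median was not tested.

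No class II gene was called between the media in the fit over all genes either. Of the 10 genes 5 had enough counts to be tested, and 0 of these passed an adjusted p below 0.05 in edgeR's quasi-likelihood test. Over all genes 0 of 13555 passed (0%), while DESeq2 called 13 and edgeR with a replicate block called 59. At an unadjusted p below 0.05 edgeR without that block gave 928 genes (6.85%), and 0 of the 5. Groups did not overlap for 11.1% of tested genes and for 0 of the 5.

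The fitted changes had narrower intervals for CD74 and HLA-DRB1 than for HLA-DMA and CIITA. On the log2 scale CD74 measured -0.047 with a standard error of 0.052 (95% interval -0.16 to 0.062, edgeR adjusted p = 0.91). HLA-DRB1 measured -0.090 with a standard error of 0.080 (95% interval -0.26 to 0.077, edgeR adjusted p = 0.893). HLA-DMA measured -0.023 (95% interval -0.31 to 0.27) and CIITA 0.019 (95% interval -0.30 to 0.34), with edgeR adjusted p of 0.99 and 0.994. The interval of HLA-DQB1 was wide, -0.64 to 1.02 around 0.19, on its few counts. Of the 5 tested genes 2 had a positive and 3 a negative value, with a median of -0.023, beside 6759 positive and 6796 negative values and a median of -0.00030 over all tested genes. HLA-DRA, HLA-DPA1, HLA-DPB1, HLA-DQA1 and HLA-DMB were too low to be tested in this fit. With shNC replicate 2 left out, CD74 measured -0.019 and HLA-DRB1 -0.020, and with shSPP1#2 replicate 2 left out -0.079 and -0.16.

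**Figure D3:**
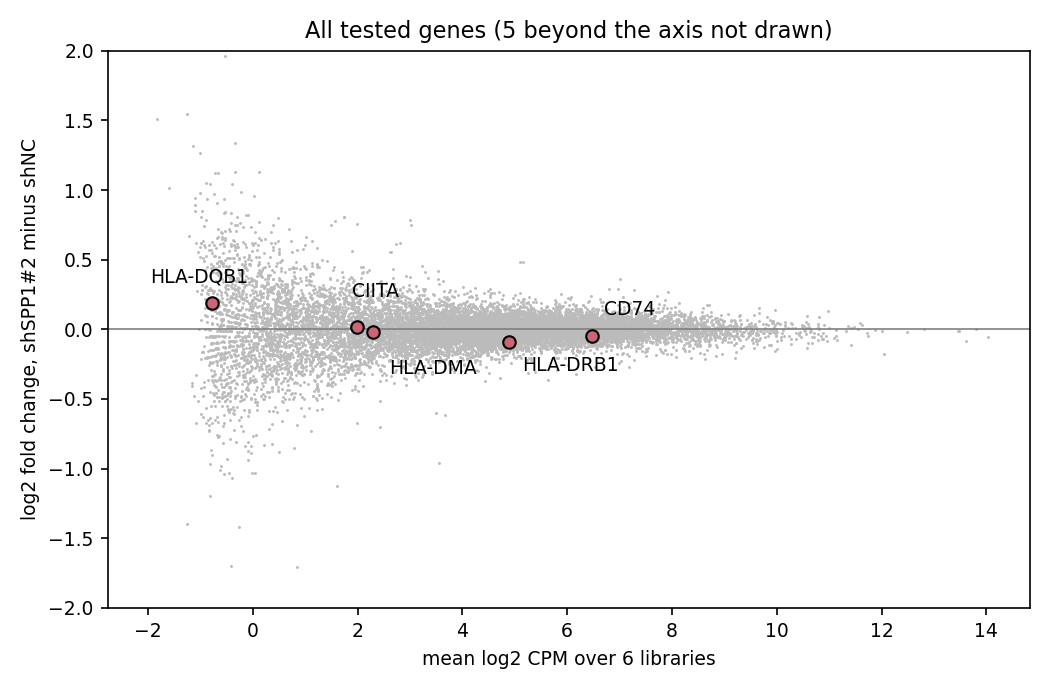
Log2 fold change (shSPP1#2 minus shNC, edgeR) against mean log2 CPM for 13555 tested genes in grey, with the 5 tested class II genes in red; 5 genes beyond 2 are not drawn. The class II genes lie inside the cloud of all genes at their level.

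Most genes listed for the path from interferon gamma to CIITA, its inhibitors SOCS1 and PTPN2 included, were detected in these cells. Of 10 listed genes 9 were deposited (IFNG had no entry), 8 of these reached 1 FPKM in every library, and 0 of 9 tested were called. The receptor chains IFNGR2 and IFNGR1 measured 82.4 to 88.8 and 70.1 to 73.8 FPKM, and USF1, a factor of the CIITA promoter that interferon drives, 50.6 to 58.7 FPKM. USF1 had a log2 fold change of -0.13 (95% interval -0.22 to -0.033, edgeR adjusted p = 0.601), with groups that did not overlap. IFNGR1 and IFNGR2 measured -0.00040 and 0.033. In the list 7 values were positive and 2 negative, with a median of 0.039. The positive values include those of the inhibitors SOCS1 (0.14) and PTPN2 (0.039), so the count gives no direction of the pathway.

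The DNA-binding partners of CIITA were present as well. Of 7 such genes 6 reached 1 FPKM in every library, and RFXAP, the accessory subunit of RFX, ran from 0.69 to 1.24 FPKM. NFYC and NFYA, subunits of the CCAAT-binding factor, measured 342 to 363 and 21.9 to 23.8 FPKM, and RFXANK, another RFX subunit, 38.8 to 42.2 FPKM. Their log2 fold changes were 0.025, 0.032 and 0.023. None of 7 was called, 5 values were positive and 2 negative, and the median was 0.025. RFX5, the DNA-binding RFX subunit, is added here after its values were seen, as the only one below an unadjusted p of 0.05. It measured 17.5 to 18.1 FPKM in shNC and 16.2 to 16.9 FPKM in shSPP1#2 medium, with a log2 fold change of -0.11 (95% interval -0.21 to -0.015, edgeR adjusted p = 0.663).

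Transcription factors of myeloid and B cells that bear on CIITA were likewise not called (0 of 6; 3 positive, 3 negative, median 0.000090). SPI1, the myeloid master regulator PU.1, measured 184 to 199 FPKM, ETS1 122 to 131 FPKM and IRF8 73.1 to 79.3 FPKM. Their log2 fold changes were -0.036, 0.022 and -0.010. IRF4 and MYB, more typical of lymphoid and progenitor cells, stayed below 1 FPKM in every library.

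**Figure D4:**
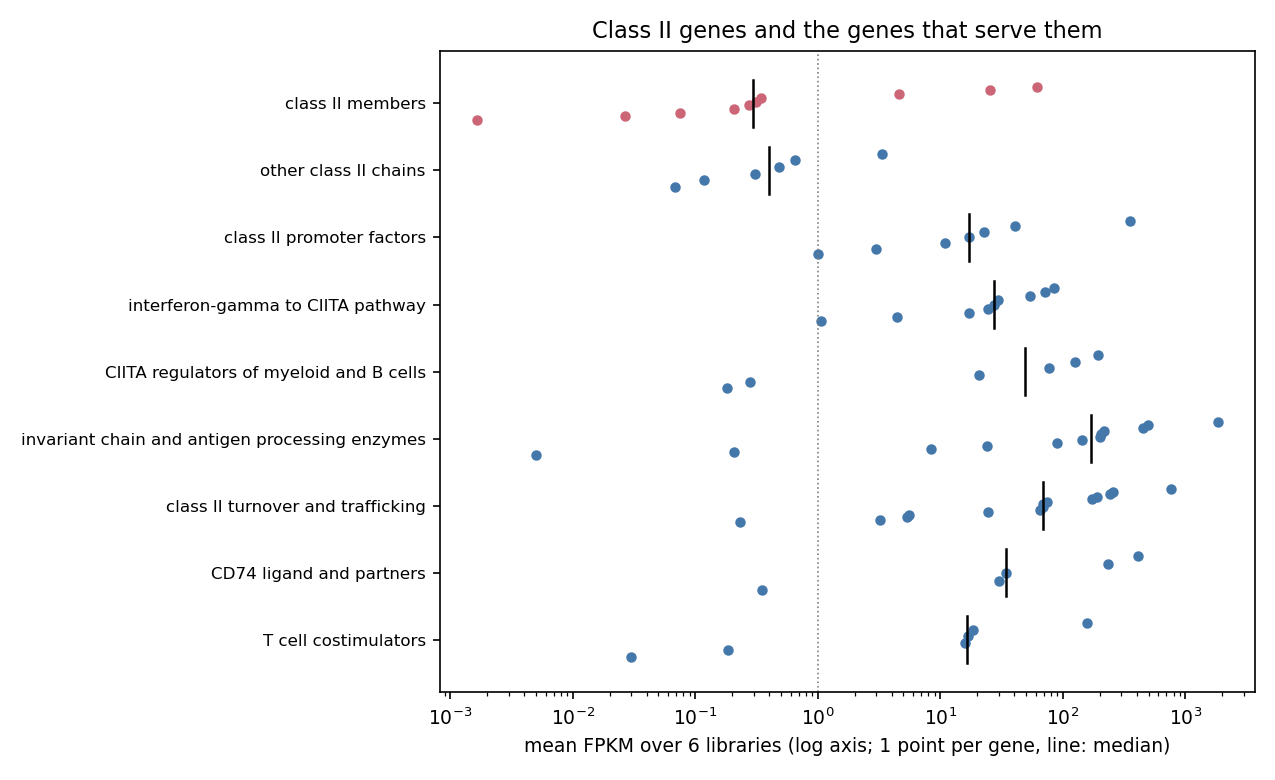
Mean FPKM over 6 libraries (log axis) of each deposited gene, grouped by role, with the class II genes in red and a black line at each list's median. The class II chains sit mostly below 1 FPKM (dotted line), while most genes of induction, processing and trafficking lie above it.

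Most genes on the list of antigen processing, which holds enzymes and the cathepsin inhibitor CST3, were abundant. Of 12 genes 10 reached 1 FPKM in every library, and the list median ran from 157 to 178 FPKM by library. CTSV and CTSF, cathepsins named for this count, stayed below 1 FPKM. Cathepsin L (CTSL) measured 1751.5 to 2022 FPKM, cathepsin B (CTSB) 465 to 523 FPKM and cathepsin D (CTSD) 430 to 477 FPKM. CTSL had a log2 fold change of -0.12 (95% interval -0.22 to -0.0096, edgeR adjusted p = 0.691), CTSB of -0.045 and CTSD of -0.014. Of 11 tested genes 0 were called, 3 values were positive and 8 negative, with a median of -0.028. Groups did not overlap for 3 of the 11, beside 11.1% of all tested genes.

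Other genes around class II followed the same pattern of presence without a call. Of 14 turnover and trafficking genes 13 reached 1 FPKM in every library, led by the late endosomal tetraspanins CD63 (702 to 822 FPKM) and CD82 (243 to 272 FPKM) and by CD53 (231 to 248 FPKM). Their log2 fold changes were -0.097, -0.090 and 0.0041, and over the 14 tested 4 values were positive and 10 negative (median -0.015, 0 called). MARCHF1, a ubiquitin ligase that removes class II from the surface, is the gene below that level, at 0.14 to 0.35 FPKM; it was named for this count.

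The other class II chain genes were as scarce as most of the 10. Of 9 listed, 6 were deposited and 1, HLA-DRB5, reached 1 FPKM in every library. HLA-DOB, a chain of the HLA-DM inhibitor HLA-DO, measured 0.39 to 0.92 FPKM, and HLA-DRB3 0.19 to 0.80 FPKM. The 3 tested had negative values (HLA-DRB5 -0.17, HLA-DOB -0.055, HLA-DRB3 -0.36; median -0.17), all with 95% intervals that include 0, and 0 were called.

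Of 5 listed ligands and surface partners of CD74, 4 reached 1 FPKM in every library. CD44, its signalling co-receptor, measured 397 to 416 FPKM, and the ligands MIF and DDT 221 to 266 and 31.1 to 37.2 FPKM. Their log2 fold changes were -0.012, -0.073 and -0.079. Of the 5 genes 0 were called, with 1 value positive and 4 negative (median -0.073). The exception in level was CXCR2, a chemokine receptor that also responds to MIF, named here after its values were seen. It measured 0.53, 0.31 and 0.49 FPKM with shNC and 0.19, 0.30 and 0.28 FPKM with shSPP1#2 medium, so the groups did not overlap. Its log2 fold change was -0.81 (95% interval -1.49 to -0.12, unadjusted p = 0.023, edgeR adjusted p = 0.633). T cell costimulators gave 0 calls among 5 tested, with 1 value positive and 4 negative (median -0.032). The adhesion molecule ICAM1 measured 150 to 163 FPKM, CD58 17.6 to 19.2 FPKM and ICOSLG 15.9 to 17.8 FPKM, with log2 fold changes of -0.033, -0.032 and 0.012. CD80 and CD86, the B7 ligands of CD28, are named here after their values were seen, as the 2 of 6 that stayed below 1 FPKM: CD80 measured 0 to 0.05 FPKM and CD86 0.13 to 0.24 FPKM.

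**Figure D5:**
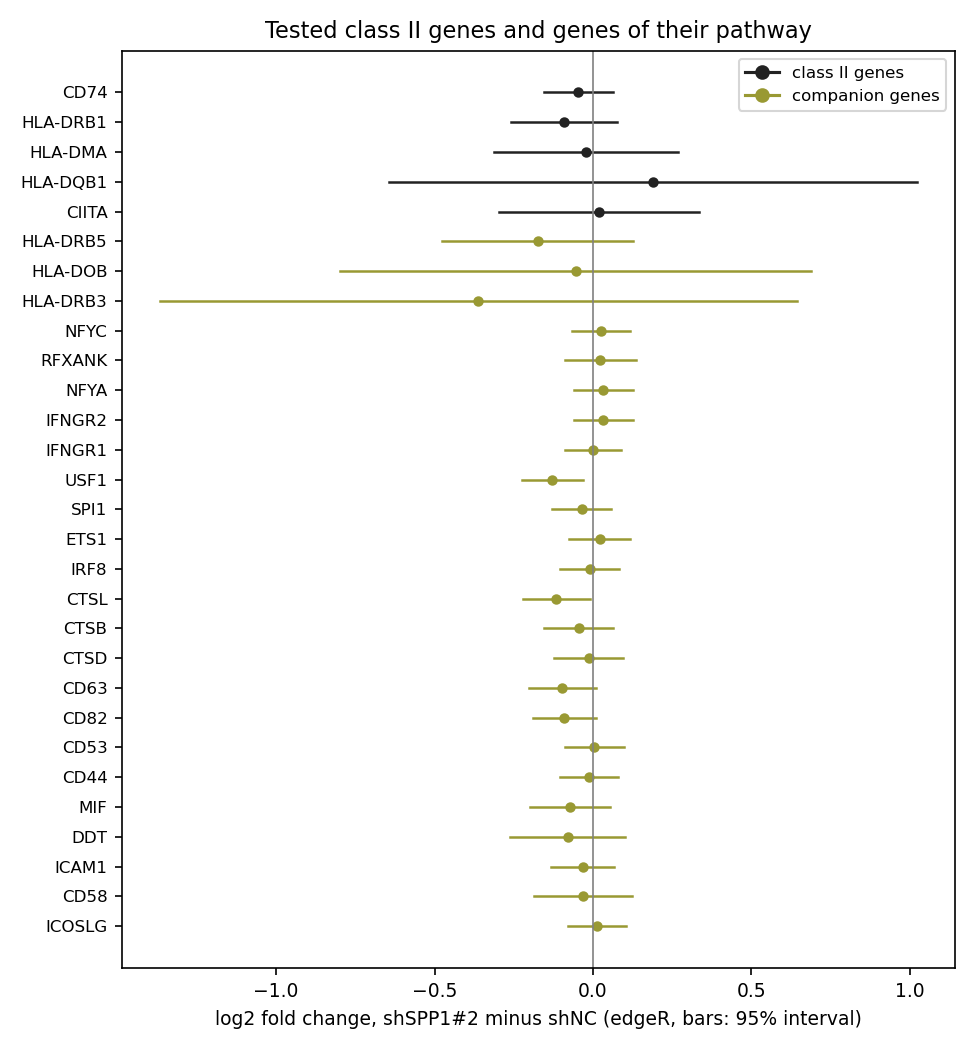
Log2 fold change (shSPP1#2 minus shNC, edgeR; bars are 95% intervals) for the 5 tested class II genes in black and the 3 most abundant genes of each pathway list in olive. The class II intervals all include 0, and those of USF1 and CTSL lie below it without passing the adjusted threshold.

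The 3 class II genes above a mean log2 CPM of 2 did not all share a pattern across libraries. Centred over the 6 libraries, HLA-DRB1 and CD74 were highest in shNC replicate 2 (0.19 and 0.081) and HLA-DMA lowest there (-0.24). HLA-DRB1 and CD74 were both lowest in shSPP1#2 replicate 3 (-0.14 and -0.12). HLA-DMA varied by 10.3% in CPM, against 10.2% from counting alone at its mean count. The mean profile of the 3 genes had a root mean square of 0.036, and CD74, HLA-DRB1 and HLA-DMA differed from it by 0.064, 0.10 and 0.14. Among 10613 other genes, SPG21, NFX1 and VDAC2 were nearest to that profile, at a root mean square difference of 0.0077, 0.011 and 0.011, where the median gene was at 0.080. They are the closest of many genes by this rule, so their nearness is a description.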

How the data were processed

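The authors deposited estimated counts per gene, not scaled, and FPKM values per gene for 6 libraries. HISAT2 2.0.4, Bowtie2 2.2.5, RSEM and build GRCh38.p13 are named, with no role or order, per the submitters' processing notes; the sources used here state neither strand use nor annotation or filters. Estimated counts are divided between similar or overlapping genes, and 78.9% to 80.4% of values were not whole (tolerance 0.005). From the FPKM values 20 stray annotation lines were dropped.

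Counts were rounded, filtered with filterByExpr (13555 genes kept), scaled by TMM and tested with edgeR 4.0.16 (quasi-likelihood, R 4.3.3), shSPP1#2 minus shNC, with Benjamini-Hochberg adjustment over all tested genes. On counts simulated for this comparison (13459 genes), the test called 98% of 100 genes changed 1.5-fold and 100% of 100 changed 2-fold, with 19 of 217 calls among unchanged genes. With no gene changed it made 3 calls. The changed genes were drawn only from genes with a mean CPM above that of HLA-DMA, CIITA and HLA-DQB1. The shares called therefore do not apply to genes as scarce as these. The median standard error was 0.064 for genes at a mean log2 CPM of at least 2. Ratios to CIITA used FPKM without a pseudocount. They were planned for 9 genes, and the 3 listed at 0 in some library were left untested. Intervals on counts are exact and cover counting error only.

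Genes and lists (8 pathway, 5 cell type) were chosen with earlier results of these data known. Named were all 10 genes, the 3 most abundant of each pathway list, any called gene and the 2 most abundant of each cell type list, with exceptions stated. Alternatives were RLE and upper-quartile scaling, no low-count filter, DESeq2 1.42.0, limma 3.58.1 on log2(FPKM + 1) and log2(FPKM + 0.1), a replicate block, other ratio scales and each library left out. Positions are from GENCODE v29. Plots used matplotlib 3.10.9.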

Additional observations from a re-analysis of the deposited data

How the results depend on the processing

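No class II gene was called under any of the alternatives that were run. Over all genes the number called, 0 in the main fit, was 18 without a low-count filter, 59 with a replicate block, 13 with DESeq2 and 2 with limma on log2(FPKM + 0.1); the cause was not tested. With single libraries left out it ran from 1 to 10: leaving out shNC replicate 1, 2 or 3 gave 3, 2 or 4, and leaving out shSPP1#2 replicate 1, 2 or 3 gave 1, 10 or 2. The replicate block was run only as an alternative, because the labels number the replicates without stating a pairing. Deviations of same-numbered libraries correlated at 0.194, 0.286 and 0.0892, and those of differently numbered libraries at -0.26 to 0.117. Whether same-numbered libraries belong together was not tested. With the replicate block CD74 measured -0.048 and HLA-DRB1 -0.091. DESeq2 gave an adjusted p for 1 of the 10 genes, CD74. With single libraries left out, log2 fold changes ran from -0.081 to 0.0031 for CD74, -0.13 to 0.054 for HLA-DMA and -0.082 to 0.12 for CIITA, each with values of both signs; the cause was not tested. HLA-DRB1 (-0.17 to -0.020) and HLA-DQB1 (0.032 to 0.34) kept their sign. The median difference relative to CIITA ran from -0.16 to 0.11. For single genes relative to CIITA it ran from -0.16 to 0.0093 (CD74), -0.23 to -0.030 (HLA-DRB1), -0.27 to 0.073 (HLA-DMA), -0.48 to 0.47 (HLA-DMB), -0.017 to 0.29 (HLA-DQB1) and 0.37 to 2.09 (HLA-DQA1). On log2(FPKM + 1) and on TMM-scaled log2 CPM the median was -0.026 and -0.048. The low-count filter kept HLA-DQA1, HLA-DMB, HLA-DRA, HLA-DPA1 and HLA-DPB1 out of the main edgeR fit. The last 3 were also left out of the ratio test, because they were listed at 0 in some library.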
